A study of Mus musculus with 8 samples.

Results

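Fibroblast growth factors (FGFs) and their receptors were followed in primary mouse calvarial osteoblasts treated with parathyroid hormone (PTH) or vehicle. The set comprised 10 genes chosen by symbol from the 47706 genes of the count table: the ligands Fgf1, Fgf2, Fgf7, Fgf9, Fgf10 and Fgf18 and the receptors Fgfr1, Fgfr2, Fgfr3 and Fgfrl1. The rule uses the symbols and no expression value, though the symbols were picked with earlier results of these data known. All 10 were among the 16736 genes with enough counts to be tested. Cells from the skull bones of neonatal mice were differentiated for 7 days, kept in low serum for some hours and then given the PTH 1-34 peptide or its vehicle for 24 hours. There were 4 PTH samples and 4 vehicle samples, with no genotype, strain or sex in their labels and nothing to say whether they came from separate mice, so every p-value measures the spread between these samples, which may be technical. All sample titles begin with the prefix Con, which the labels do not explain. The labels call the differentiation adipogenic, whereas the study's methods describe an osteogenic medium.

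Most FGFs are secreted proteins that bind receptor tyrosine kinases on the cell surface together with heparan sulfate, or with a Klotho protein in the case of the hormone-like FGFs. The active receptor passes its signal through the adaptor Frs2 to the Ras and ERK kinases and to PI3 kinase. It also signals to phospholipase C gamma, and ERK in turn induces inhibitors such as the Sprouty proteins. In the skull, Fgfr1, Fgfr2 and Fgfr3 act in bone-forming cells, activating mutations of FGFR2 and FGFR3 close the cranial sutures early, and Fgf2, Fgf9 and Fgf18 are known ligands of osteoblasts and their progenitors. Fgfrl1 is the family member whose short intracellular part has no tyrosine kinase.

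Total counts per sample ran from 33605610 to 56090654. The level of a gene is given below in counts per 1000000 counts of the library (CPM), on library sizes adjusted by the trimmed mean of M-values, and a gene was taken as differentially expressed at an adjusted p under 0.05 in edgeR's quasi-likelihood test over all tested genes. Tnfsf11, which encodes RANKL and is a well-known PTH target, was at 0.987 to 1.79 CPM in vehicle and 115 to 157 CPM in PTH samples, and Pth1r, the PTH receptor, was at 118 to 166 CPM in vehicle and 70.7 to 96.3 CPM in PTH samples (log2 fold change -0.70, adjusted p = 0.000443). The median level of 9 osteoblast markers was 188 to 322 CPM per sample and that of 7 adipocyte markers 2.71 to 6.0 CPM. Of the osteoblast markers, 3 fell with PTH (Runx2, Sp7 and Dmp1), and of the adipocyte markers Pparg fell. The summed level of 6 chondrocyte markers was 319 to 336 CPM in vehicle and 372 to 490 CPM in PTH. Most of this sum was Col2a1 (mean 226 CPM in vehicle and 307 CPM in PTH). Col2a1 and Acan rose, Sox9, Col9a1 and Col10a1 did not pass the test, and Matn1 had too few counts to be tested. The summed level of 9 macrophage markers was 286 to 502 CPM in vehicle and 433 to 495 CPM in PTH, where 1 of 9 (Tyrobp) rose. Among 4 epithelial markers Krt14 was at 0 in all samples and the sum was at most 1.41 CPM. The 5 endothelial markers summed to at most 6.97 CPM (Emcn at 0, Kdr higher and Tek lower with PTH) and the 4 skeletal muscle markers to at most 6.43 CPM (Acta1 lower). These lists move with the treatment to that extent, and their part in the FGF values was not tested. Bulk RNA cannot tell more cells of one type from more RNA per cell.

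PTH upregulated 4 of the 6 ligands (Fgf2, Fgf7, Fgf9 and Fgf10) and the receptors Fgfr1 and Fgfr2, while Fgfrl1 was lower. The other 3 genes (Fgf1, Fgf18 and Fgfr3) did not pass the test. Across all genes tested 45.8% passed it, 23.3% as higher and 22.5% as lower with PTH, beside 6 higher and 1 lower of these 10. A log2 fold change of 1 or more that passed the test was found in 4 of the 10, all of them ligands, against 7.36% of all genes tested. The median log2 fold change was 0.76 over the 10 genes and -0.00081 over all genes tested. The PTH and vehicle samples did not overlap in 7 of the 10, against 43.0% of all genes tested. Of these 7, PTH was above vehicle in 6 (21.2% of all genes tested) and below it in 1 (21.8%).

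**Figure D1:**
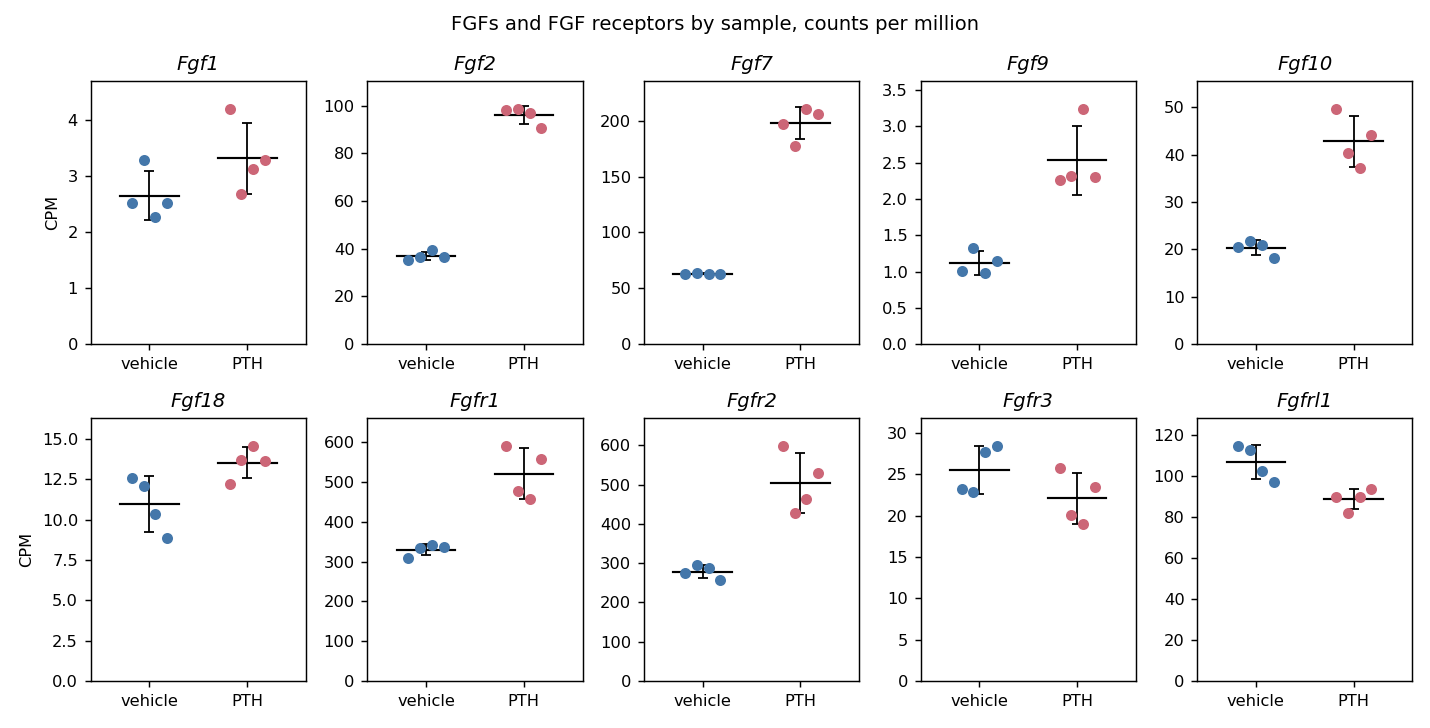
CPM (vertical axes from 0) of the 6 ligands and 4 receptors in the 4 vehicle samples (blue) and 4 PTH samples (red), each point being 1 sample, with the mean (black line) and SD (bar). In Fgf2, Fgf7, Fgf9, Fgf10, Fgfr1 and Fgfr2 all PTH samples lie above all vehicle samples, in Fgfrl1 all lie below, and in Fgf1, Fgf18 and Fgfr3 the groups overlap.

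The promoters of the 4 upregulated ligands are shown here because the PTH receptor acts through cyclic AMP, whose transcription factor CREB binds the cyclic AMP response element (CRE). Each is the run of 250 bases before the RefSeq start on GRCm38.p6, read 5′ to 3′ on the gene's own strand, with matches to the CRE half-site TGACG, on either strand, in capitals. The Fgf2 promoter (chr3:37348403-37348652, plus strand) held 2 matches, whose first bases lie 140 and 6 bases before the start, and the Fgf9 promoter (chr14:58072436-58072685, plus strand) held 1, at 64 bases before it. The Fgf7 promoter (chr2:126034408-126034657, plus strand) and the Fgf10 promoter (chr13:118714449-118714698, plus strand) held none.
Fgf2: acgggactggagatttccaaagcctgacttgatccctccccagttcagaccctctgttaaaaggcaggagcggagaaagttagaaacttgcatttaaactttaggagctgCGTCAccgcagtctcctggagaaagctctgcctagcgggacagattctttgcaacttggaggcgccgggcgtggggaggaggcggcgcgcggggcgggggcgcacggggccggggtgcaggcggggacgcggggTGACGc
Fgf9: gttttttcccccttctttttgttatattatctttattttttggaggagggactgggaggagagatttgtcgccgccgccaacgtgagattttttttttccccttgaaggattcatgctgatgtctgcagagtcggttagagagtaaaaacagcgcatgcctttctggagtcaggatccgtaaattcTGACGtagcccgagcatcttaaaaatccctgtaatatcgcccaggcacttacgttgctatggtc
Fgf7: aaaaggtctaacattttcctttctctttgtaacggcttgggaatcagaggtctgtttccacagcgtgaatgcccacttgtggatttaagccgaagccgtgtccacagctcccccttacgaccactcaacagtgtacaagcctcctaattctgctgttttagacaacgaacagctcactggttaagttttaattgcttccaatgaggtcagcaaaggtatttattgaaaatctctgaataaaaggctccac
Fgf10: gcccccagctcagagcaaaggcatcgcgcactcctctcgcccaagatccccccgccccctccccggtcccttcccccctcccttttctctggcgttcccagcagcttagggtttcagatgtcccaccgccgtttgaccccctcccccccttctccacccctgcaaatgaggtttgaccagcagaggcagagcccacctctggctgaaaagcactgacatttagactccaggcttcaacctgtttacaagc

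The reference gave promoters for 8 of the 10 genes, with none for Fgf1 and Fgfr1, and those of Fgf18, Fgfr2, Fgfr3 (2 promoters) and Fgfrl1 held no TGACG. The same letters occur in 17.8% of all 32851 promoters over the same 250 bases. No promoter of the set held the AP-1 site TGANTCA, found in 6.75% of all promoters, or the palindromic CRE TGACGTCA, which contains TGACG and was found in 1.55%. So the upregulated ligands include genes with and without the half-site in this window. A match is a run of letters and not a binding site, and these samples may start transcription elsewhere. The windows of Fgf2, Fgf9, Fgf10, Fgfr2 and Fgfrl1 lie inside the annotated genes, and those of Fgfr3 do so wholly or in part. For Fgf10 the window begins at 118714449 and the annotated gene at 118669791, so the lack of a match there concerns an internal start.

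Fgf7, also called keratinocyte growth factor, is made by mesenchymal cells and acts on the IIIb splice form of Fgfr2. It was at 63.0, 63.5, 63.2 and 62.5 CPM in the vehicle samples and at 197, 178, 210 and 206 CPM in the PTH samples. The vehicle samples were close together, and the lowest PTH sample was far above them. Fgf7 rose by 1.65 (SE 0.0668, adjusted p = 1.77e-09) on the log2 scale, a 3.14-fold difference and the largest of the 10. Its gene lies on chromosome 2 (126034658 to 126091185, GRCm38, plus strand).

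Fgf10 is the closest relative of Fgf7 and shares that receptor form. Its vehicle samples were at 20.6, 21.8, 20.9 and 18.2 CPM and its PTH samples at 49.6, 40.3, 37.2 and 44.1 CPM. Every PTH sample was above every vehicle sample, with more scatter in the PTH group (SD 5.32 against 1.56 CPM, n = 4 each). The log2 fold change of Fgf10 was 1.07 (SE 0.0968, adjusted p = 2.55e-06). Fgf10 (chromosome 13, 118669791 to 118792115, plus strand) shares 123 exonic bases with an antisense gene that held 5 to 31 counts, beside 901 to 2542 for Fgf10.

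Fgf2, basic FGF, is stored in the bone matrix and is a mitogen of osteoblast progenitors. It was at 35.3, 36.7, 39.3 and 36.6 CPM in vehicle and at 98.3, 98.5, 97.0 and 90.7 CPM in PTH samples. The groups were far apart and tight, and the log2 fold change was 1.38 (SE 0.0621, adjusted p = 4.78e-09), 2.60-fold. Fgf2 (chromosome 3, 37348346 to 37410108, plus strand) has neighbors that could share its reads. It overlaps Nudt6, on the opposite strand, in 640 of its 6782 exonic bases, and Nudt6 held 15 to 53 counts per sample and did not pass the test. The assembled locus of Fgf2 also holds Bbs12, which fell from 141 to 207 counts in vehicle to 18 to 43 in PTH, while Fgf2 itself held 1581 to 1884 and 3273 to 5041 counts.

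Fgf9, a ligand of the IIIc forms of the receptors, had few counts. Its vehicle samples were at 1.0, 1.33, 0.981 and 1.15 CPM (45 to 58 counts) and its PTH samples at 2.26, 2.32, 3.24 and 2.31 CPM (77 to 124 counts). The groups did not overlap, and 1 PTH sample stood above the other three. The log2 fold change was 1.18 with the widest standard error among the genes that passed (SE 0.229, adjusted p = 0.00122). Fgf9 lies on chromosome 14 (58070547 to 58112720, plus strand).

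Fgf18, a ligand needed for skull bone formation, did not pass the test. It was at 12.6, 12.1, 10.4 and 8.83 CPM in vehicle and 12.2, 13.7, 14.6 and 13.6 CPM in PTH samples. The lowest PTH sample was below the highest vehicle sample, and the log2 fold change was 0.30 with an interval of 2 SE on each side from 0.065 to 0.54 (adjusted p = 0.0559). This value lies near the threshold. Across the fits on 7 of the 8 samples the adjusted p ran from 0.0294 to 0.144, and Fgf18 passed without vehicle replicate 1 (0.0294) or PTH replicate 1 (0.0367). With an offset for gene length the log2 fold change was 0.15 (adjusted p = 0.295).

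Fgf1, acidic FGF, binds every FGF receptor. It was low in both groups, at 2.52, 3.28, 2.27 and 2.52 CPM in vehicle and 4.19, 2.68, 3.13 and 3.28 CPM in PTH samples. These values overlapped, and the log2 fold change of 0.33 (interval of 2 SE from -0.064 to 0.73) did not pass the test (adjusted p = 0.195). Without PTH replicate 1, its highest sample, it was 0.19.

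Of the receptors, Fgfr1 and Fgfr2 rose with PTH. Fgfr1, the main receptor of mesenchymal progenitors, was at 309, 334, 342 and 335 CPM in vehicle and at 590, 478, 457 and 557 CPM in PTH samples. The PTH group was higher throughout but spread over more than 100 CPM. Its log2 fold change was 0.66 (SE 0.0887, adjusted p = 7.97e-05).

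Fgfr2, which marks osteogenic fronts in the skull, was at 276, 295, 287 and 256 CPM in vehicle and at 599, 427, 462 and 529 CPM in PTH samples. Its log2 fold change was 0.86 (SE 0.102, adjusted p = 2.83e-05), 1.81-fold. In both receptors PTH replicates 1 and 4 were the upper pair and replicates 2 and 3 the lower pair. PTH replicate 1 also had the highest total count and replicate 2 the lowest. Without PTH replicate 1 the log2 fold changes were still called in both receptors, and over all samples left out in turn they ran from 0.59 to 0.71 for Fgfr1 and from 0.76 to 0.94 for Fgfr2. The annotated Fgfr2 gene (chromosome 7, 130162451 to 133123350, minus strand) reaches into Ctbp2 on the same strand, with 314 of 10328 exonic bases in common, and Ctbp2 did not pass the test (adjusted p = 0.734). Gene counts do not separate the IIIb and IIIc splice forms of these receptors, which bind different ligands.

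Fgfr3, best known as a brake on cartilage growth, was at 23.2, 22.9, 27.7 and 28.4 CPM in vehicle and 25.7, 20.1, 19.0 and 23.5 CPM in PTH samples. The groups overlapped, and the log2 fold change was -0.21 (interval of 2 SE from -0.43 to 0.015, adjusted p = 0.15). Without PTH replicate 1 it was -0.29 and passed the test (adjusted p = 0.042). Fgfr3 shares 998 of 7158 exonic bases with an unconfirmed transcript on the other strand that held 1 to 29 counts.

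Fgfrl1 was the single gene of the set that fell. It was at 115, 112, 102 and 97.1 CPM in vehicle and 89.8, 81.6, 89.5 and 93.4 CPM in PTH samples. All PTH samples were below all vehicle samples, but the nearest pair was less than 4 CPM apart. Fgfrl1 decreased by 0.27 on the log2 scale (SE 0.0717, adjusted p = 0.00906).

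**Figure D2:**
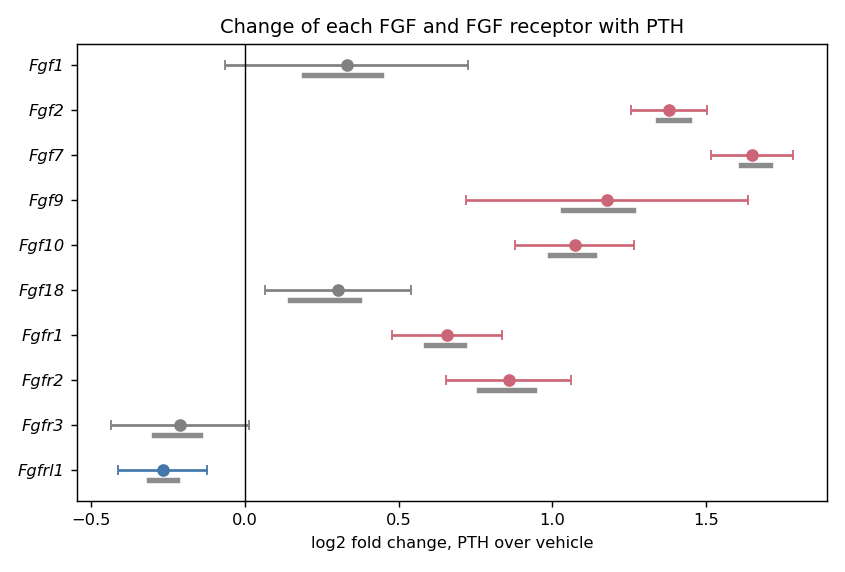
Log2 fold change (PTH over vehicle) of each gene with bars of 2 standard errors on each side, red for higher, blue for lower and grey for not differentially expressed, and below each a dark band with the range over 15 alternative settings and left-out samples. The bands of Fgf2, Fgf7, Fgf9, Fgf10, Fgfr1 and Fgfr2 stay above 0, that of Fgfrl1 stays below it, and no band crosses 0.

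Each of the 7 differentially expressed genes reached 0.0286 in the exact two-sided permutation test on log2(CPM + 0.1), the smallest p that the 70 assignments of 8 samples allow. Any gene whose groups do not overlap reaches this value, as 43.0% of all genes tested do, so it only restates the lack of overlap. Fgf18 gave 0.0571, Fgf1 gave 0.114 and Fgfr3 gave 0.171 in the same test.

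Counts depend on gene length, so levels between genes were compared per kilobase of exon and scaled to the same total over all genes (TPM). This scale has no adjustment for composition, and its group ratios differ from the CPM folds above. In vehicle the order was Fgfrl1 (131 ± 9.13), Fgfr1 (114 ± 6.75), Fgfr2 (92.1 ± 5.85), Fgf7 (66.3 ± 1.29), Fgf18 (31.5 ± 4.63), Fgf2 (18.6 ± 0.994), Fgf10 (15.1 ± 1.15), Fgfr3 (12.2 ± 1.48), Fgf1 (1.66 ± 0.292) and Fgf9 (0.821 ± 0.131; SD, n = 4). Of these neighbors only the samples of Fgf10 and Fgfr3 overlapped. In PTH samples, with this length, Fgf7 came first at 176 ± 15 TPM (SD, n = 4). Its samples overlapped those of Fgfr1 (153 ± 23.7), which in turn overlapped those of Fgfr2 (141 ± 25.7), and Fgfrl1 followed at 92.0 ± 7.55 TPM.

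The order at the top depends on the length used. With the longest transcript in place of all exons, the vehicle level was 180 TPM for Fgfr1 and 172 for Fgfr2, whose samples overlapped, and both were above Fgfrl1 at 126. In the PTH samples the longest transcript put Fgfr2 (267 TPM) and Fgfr1 (242 TPM), whose samples overlapped, above Fgf7 (173 TPM), whose samples overlapped those of neither receptor. Fgf7 remained the most abundant ligand under both lengths and in both groups.

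**Figure D3:**
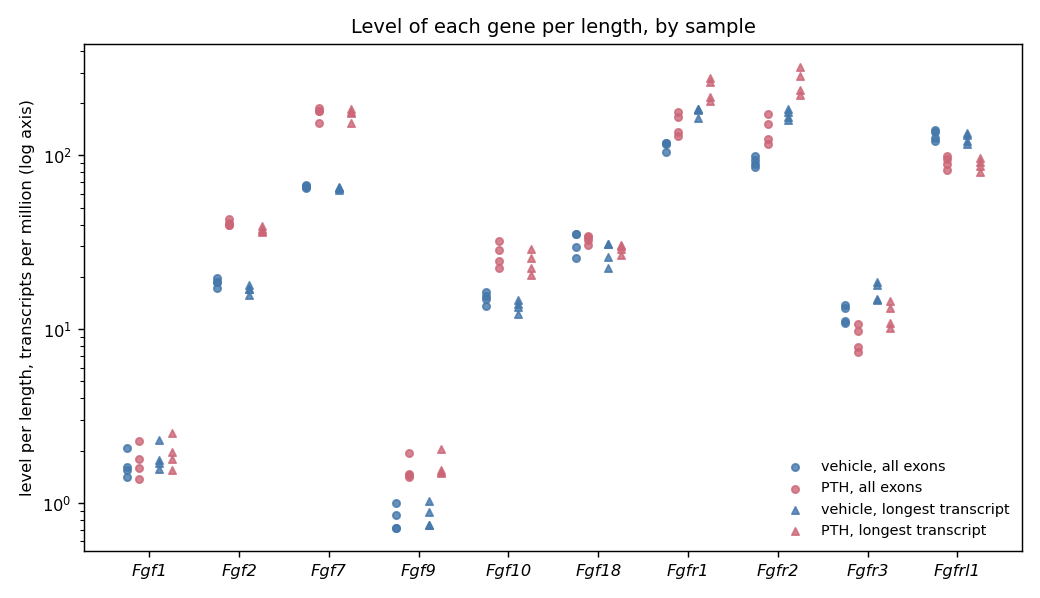
Level per length in TPM (log axis) of each gene in every vehicle (blue) and PTH (red) sample, from the summed length of all exons (circles) or the longest transcript (triangles). The levels span from about 1 for Fgf9 to above 100 for Fgfr1, and Fgfr1 and Fgfr2 shift most with the length chosen.

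The makeup of the receptors differed between the groups. Fgfr1 and Fgfr2 together made up 56.6%, 58.8%, 60.6% and 60.2% of the summed per-length level of the 4 receptors in the vehicle samples and 76.7%, 73.6%, 72.3% and 74.5% in the PTH samples. The share of Fgfrl1, which lacks the kinase, was 37.5% ± 2.16 in vehicle and 23.5% ± 1.91 in PTH samples (SD, n = 4). The direction of both was the same with the longest transcript, where Fgfr1 and Fgfr2 together went from 71.2% ± 1.37 to 83.3% ± 1.28 (SD, n = 4).

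Among the 6 ligands the share of Fgf7 went from 49.5% ± 2.05 in vehicle to 62.8% ± 1.80 in PTH (SD, n = 4). The share of Fgf18 went from 23.4% ± 2.69 to 11.8% ± 0.950 while its CPM did not pass the test and 4 of the other ligands rose. Fgf2, whose own level rose 2.60-fold in CPM, kept a share of 13.9% ± 0.981 in vehicle and 14.7% ± 1.07 in PTH (SD, n = 4). These shares are descriptions and were not tested.

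The genes most alike each differentially expressed gene were taken as the 2 with the highest Pearson r of log2 CPM over the 8 samples, which share the split between treatments. For Fgf2 they were Whsc1l1 and Nfkb1 (r = 0.999 each), for Fgf7 Ackr3 and Rap2a (0.999 each) and for Fgf10 Dnaja1 (0.999) and Map7d1 (0.998). For Fgf9 they were Psmb2 (0.991) and Smim7 (0.990), at a lower level and with more counting error in Fgf9. The receptors paired with Slain2 (0.998) and Slc41a2 (0.992) for Fgfr1, with S1pr1 and B4galt1 (0.996 each) for Fgfr2, and with Slitrk5 (0.984) and Ccdc112 (0.979) for Fgfrl1.

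Most of the other FGFs had too few counts to be tested. Of 16, 13 had any count and 6 were tested, of which 2 rose and 1 fell (median log2 fold change 0.13, also with Fgf23 at its bound given below). The 50% that passed the test were near the 45.8% of all genes tested. The tested genes include intracellular FGFs such as Fgf13, so this share and median are not those of receptor ligands alone. Fgf21, a hormone-like FGF of fasting and stress, had 4, 4, 7 and 3 counts in vehicle and 223, 109, 158 and 223 in PTH samples, and its log2 fold change was 5.42 (adjusted p = 4.29e-08). Fgf23, the bone hormone that lowers serum phosphate, had no count in any vehicle sample and 86, 34, 58 and 69 counts in PTH samples. Against a floor of 3 counts per vehicle library the PTH mean was at least 22.6-fold higher, a bound that leaves out the spread of the PTH samples. Among these other FGFs only the promoters of Fgf23 and Fgf21 were searched. Each held 1 TGACG, letters found in 17.8% of all promoters over the same 250 bases. With few counts even under PTH, the levels were 1.46 ± 0.302 CPM for Fgf23 and 4.26 ± 0.831 CPM for Fgf21 in the PTH samples (SD, n = 4). Fgf13, an intracellular FGF that binds sodium channels, decreased by 0.45 on the log2 scale (adjusted p = 0.0332). Without vehicle replicate 3, or without PTH replicate 2, 3 or 4, 0 of these FGFs passed as lower. Fgf5 had too few counts to be tested, with 4 to 10 in vehicle and 0 to 2 in PTH samples.

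No gene of the other receptors, co-receptors and binding proteins rose, and 5 of 8 tested fell (median log2 fold change -0.58), beside 23.3% of all genes tested that rose and 22.5% that fell. Fgfr4, the receptor of the liver, went from 3.99 ± 0.756 to 2.23 ± 0.443 CPM (SD, n = 4, log2 fold change -0.84, adjusted p = 0.00554). The 3 fibronectin and leucine-rich repeat proteins Flrt1, Flrt2 and Flrt3, which bind FGF receptors, and the N-cadherin gene Cdh2 were the other four. Flrt1 had the largest decrease at -0.88 (adjusted p = 0.0069), and Flrt2 went from 196 ± 13.1 to 123 ± 15.5 CPM (SD, n = 4). Kl, the Klotho co-receptor that Fgf23 needs, had at most 7 counts in any sample and was not tested.

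Heparan sulfate presents FGFs to their receptors. Of 12 tested proteoglycans that carry it 4 rose and 2 fell (median log2 fold change -0.10), and the 50% that passed the test were near the 45.8% of all genes tested. The syndecan gene Sdc4 rose most, from 109, 92.9, 88.1 and 80.7 CPM in vehicle to 583, 428, 483 and 539 CPM in PTH samples (log2 fold change 2.46, adjusted p = 7.28e-09), while Sdc2 decreased by 0.40 (adjusted p = 0.00717). The proteoglycans that fell numbered 4 without PTH replicate 1 and 1 without PTH replicate 2 or 3 or without vehicle replicate 2, 3 or 4. Of 18 enzymes that build or trim the chains 4 rose and 1 fell (median log2 fold change -0.085), and the 27.8% that passed the test were below the 45.8% of all genes tested. Hs2st1, Hs3st1, Hs3st3b1 and Hs6st1 rose. Hs3st1, a sulfotransferase, rose most, from 1.47 ± 0.413 to 8.73 ± 0.933 CPM (SD, n = 4, log2 fold change 2.57, adjusted p = 6.4e-07), and Ndst1, which starts sulfation of the chain, decreased by 0.33 (adjusted p = 0.00661). The enzymes that fell numbered 3 without PTH replicate 1 and 2 without PTH replicate 4.

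Of 31 adaptors and kinases below the receptors 8 rose and 6 fell (median log2 fold change 0.028), and 17 did not pass the test, the adaptor gene Frs2 among them. Pik3r1, the regulatory subunit of PI3 kinase, went from 164, 150, 148 and 144 CPM to 75.1, 69.6, 73.5 and 73.3 CPM (log2 fold change -1.05, adjusted p = 5.96e-08). The shares of this list that rose and fell were near those of all genes tested, and 5 rose without vehicle replicate 2 or without PTH replicate 1 or 4.

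**Figure D4:**
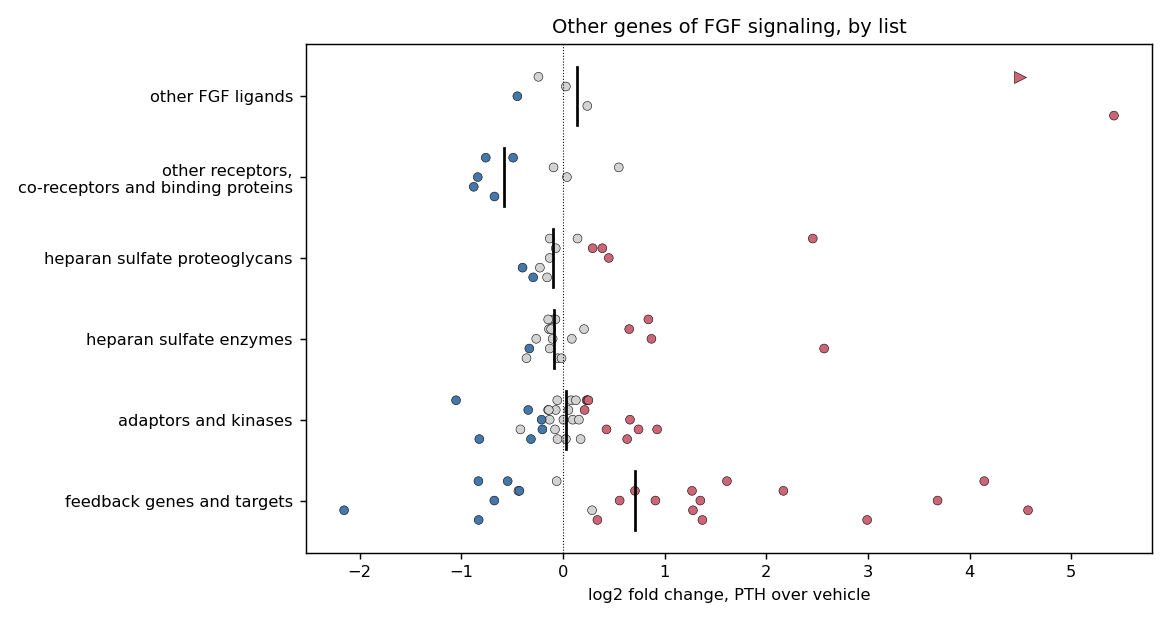
Log2 fold change (PTH over vehicle) of each tested gene in 6 lists of FGF signaling, red for higher, blue for lower and grey for not differentially expressed, with the list's median as a black bar and Fgf23 as a triangle at its lower bound. In the second list all differentially expressed genes lie below 0, and the feedback genes and targets spread on both sides of 0.

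Of 23 feedback genes and targets of ERK signaling 14 rose and 6 fell (median log2 fold change 0.71), beside 23.3% of all genes tested that rose and 22.5% that fell. The largest increase was that of Fos, an immediate early gene that cyclic AMP also induces, from 8.63, 8.43, 8.28 and 10.2 CPM to 239, 193, 199 and 217 CPM (log2 fold change 4.58, adjusted p = 1.09e-11). The 9 genes picked from this list as an FGF and ERK signature did not move one way. In the rest of the list Etv1 and Hmga2 fell, Spred3 and Ccnd1 did not pass the test, and all others rose. Of the 9, Spry2, Spry4, Spred2 and Dusp6 rose, Spry1, Spred1, Etv5 and Il17rd fell, and Etv4 did not pass the test.

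Of those that rose, the Sprouty inhibitor Spry2 went from 11.6, 11.2, 11.9 and 12 CPM to 33.2, 42.1, 33.1 and 34.4 CPM (log2 fold change 1.61, adjusted p = 3.86e-08). The ERK phosphatase Dusp6 went from 13.9, 14.2, 15.3 and 18.8 CPM to 37.6, 38.1, 35.6 and 39.7 CPM (log2 fold change 1.28, adjusted p = 6.03e-07). The groups of both genes were far apart. The log2 fold change was 0.91 for Spred2 and 0.56 for Spry4 (adjusted p = 2.84e-05 and 0.00259).

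Il17rd, also named Sef, a membrane inhibitor of FGF signaling, had the largest decrease. It went from 28.3, 25.2, 24.8 and 22 CPM in vehicle to 5.15, 6.23, 6.11 and 5.09 CPM in PTH samples (log2 fold change -2.15, adjusted p = 1.51e-08). Spry1 went from 16.7, 15.3, 16.4 and 15.8 CPM to 7.90, 8.49, 9.63 and 10.1 CPM (log2 fold change -0.83, adjusted p = 3.05e-05), opposite in direction to Spry2. The log2 fold changes of the transcription factor gene Etv5 and of Spred1 were -0.68 and -0.43 (adjusted p = 1.78e-05 and 0.00148). Etv4 was low, at 1.61 to 2.26 CPM in vehicle and 0.835 to 1.62 CPM in PTH samples, and its log2 fold change was -0.44 (adjusted p = 0.2).

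**Figure D5:**
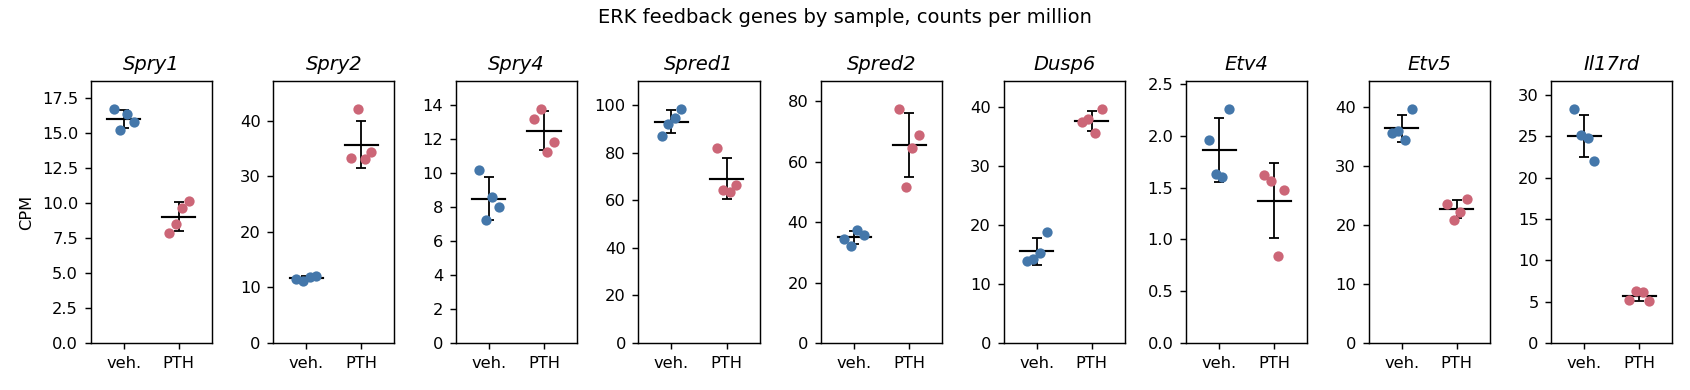
CPM (vertical axes from 0) of 9 feedback genes and targets of ERK signaling in the 4 vehicle samples (blue) and 4 PTH samples (red), with the mean (black line) and SD (bar). Spry2, Spry4, Spred2 and Dusp6 lie higher in all PTH samples, Spry1, Spred1, Etv5 and Il17rd lie lower, and Etv4 overlaps.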

How the data were processed

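Polyadenylated RNA of 4 PTH and 4 vehicle samples was sequenced as paired reads of 150 bases. The authors aligned them with HISAT2 to GRCm38 (mm10 in the submitters' processing notes), assembled transcripts with StringTie2, wrote counts with its companion script and tested them with DESeq2. The deposited counts per gene are estimated from transcript coverage, not normalized, and assume a read length of 75 unless set otherwise. The setting, tool versions, annotation and strand are not given in the sources used here. A wrong read length would scale the counts of all genes, and halved counts were run as an alternative.

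The 10 genes and all lists were chosen with earlier results of these data known. Of several entries with 1 symbol the one with the highest mean was used. edgeR 4.0.16 (TMM, filterByExpr with a minimum count of 10 and total of 15, quasi-likelihood F-test, two-sided, Benjamini-Hochberg over 16736 genes) compared the groups without a block in R 4.3.3, and standard errors were taken from its F statistic. The script was tested on simulated data. Alternatives were DESeq2 1.42.0, its size factors, no filter, a replicate block, each sample left out, halved counts, counts summed by symbol, a length offset, longest transcripts and a pseudocount of 1 CPM. Positions and lengths came from GENCODE M21 and promoters from RefSeq (GRCm38.p6). Named genes were the 10, Tnfsf11 and Pth1r, the called gene with the largest increase and decrease of each list, 9 ERK signature genes, Fgf23, Kl, Fgfr4, Fgf5, Fgf21 and the 2 genes most correlated with each called one; others were named after their values were seen. One gene that this rule names is not reported here. Bounds cover counting error only. Proteins were not compared here.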

Additional observations from a re-analysis of the deposited data

Results flagged for a closer look

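In groups of 4 samples, 6 of 67 groups over 34 genes had 1 sample set apart from the other three by Dixon's ratio at its 95% critical value, where chance gives about 1 in 20. Among the FGFs and FGF receptors it was Fgf9 in PTH replicate 3 (3.24 CPM, the next sample 2.32), and without that sample Fgf9 was still called. The others were Spry2 in PTH replicate 2 (42.1 CPM, next 34.4), Spred1 in PTH replicate 1 (82.1 CPM, next 66.4), Tnfsf11 in PTH replicate 1 (157 CPM, next 120), Fgf13 in vehicle replicate 3 (5.88 CPM, next 4.68) and Kl in vehicle replicate 1 (0.0892 CPM, the others 0). Kl had only 4 counts in that sample, and a group with 1 sample above 0 and the others at 0 always meets this rule.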

How the results depend on the processing

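The calls of Fgf2, Fgf7, Fgf9, Fgf10, Fgfr1, Fgfr2 and Fgfrl1 held under all 15 alternatives run on them, with adjusted p up to 0.0375 (Fgfrl1), and no direction was reversed. Fgf18 also passed with DESeq2's size factors (adjusted p = 0.0461) and with halved counts (log2 fold change 0.31, adjusted p = 0.048), over an adjusted p range of 0.0294 to 0.295. With 1 sample left out, the genes of the set called lower numbered 1 to 2 (2, Fgfr3 and Fgfrl1, without PTH replicate 1), other FGFs lower 0 to 1, proteoglycans lower 1 to 4, heparan sulfate enzymes lower 1 to 3 and adaptors and kinases higher 5 to 8. A length offset left 0 other FGFs and 1 proteoglycan lower, and no filter left 5 adaptors and kinases higher. The cause was not tested. Same-numbered samples did not visibly deviate together (correlations -0.041 to 0.027). This cannot decide whether the numbers pair them, since a small shared effect could be hidden by noise and the labels do not say. A replicate block left 6 genes of the set higher and 1 lower, and 0 other FGFs lower. With the longest transcript the vehicle levels per length were 17.0 for Fgf2, 64.7 for Fgf7, 13.6 for Fgf10, 180 for Fgfr1, 172 for Fgfr2 and 16.5 TPM for Fgfr3, Fgfr1 and Fgfr2 made up 71.2% (vehicle) and 83.3% (PTH) of the receptors, and Fgf7 64.6% of the ligands with PTH. Depth limits Fgf1, Fgf9 and the hormone-like FGFs.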
